A study of Mus musculus with 15 samples.

Results

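Sarcomeric myosin heavy chains are the motor proteins of the thick filament, and 8 of their genes, Myh1, Myh2, Myh3, Myh4, Myh6, Myh7, Myh7b and Myh8, were followed in differentiating mouse myoblasts after knockdown of Lmod1 or Sirt1. They were chosen by symbol as the members of this gene family and make up 8 of the 49315 gene IDs of the count table. All 8 were in the table and all 8 passed the filter on low counts in each comparison. RNA came from primary myoblasts, muscle precursor cells in culture, of wild-type C57BL/6J mice. Small interfering RNA was delivered with a lipid reagent, against Lmod1 (siLmod1), against Sirt1 (siSirt1) or as a control (siCtrl), and all 3 groups were then differentiated for 1 day. Each group held 5 libraries with the replicate numbers 1, 2, 3, 4 and 7, taken here as 5 primary lines that each received every treatment, so every library of a number shares its line. All groups are transient knockdowns in cultured cells.

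Libraries held 27135398 to 31829009 counts in siLmod1, 21004908 to 27815744 in siSirt1 and 26097889 to 33601761 in siCtrl. Lmod1, which encodes the actin nucleator leiomodin 1, was at 1.39 to 5.28 CPM (counts scaled to the library's total count) in siLmod1 and 5.77 to 41.0 in siCtrl. Sirt1, which encodes an NAD-dependent deacetylase, was at 3.37 to 11.4 CPM in siSirt1 and 16.5 to 34.2 in siCtrl. Each was lower in 5 of 5 lines, with log2 differences of -2.94 for Lmod1 and -2.07 for Sirt1. An exact two-sided permutation test, unpaired by line, gave p = 0.00794 for each, the smallest that 5 against 5 libraries allow. Each target also moved in the other knockdown, in edgeR with the line as a block (log2 fold change, p adjusted over all genes). Lmod1 was at 17.1 ± 11.4 CPM in siSirt1 and 29.3 ± 14.97 in siCtrl, and fell in 5 of 5 lines (-0.96, adjusted p = 0.0271). Sirt1 was at 38.1 ± 9.39 CPM in siLmod1 and 25.3 ± 6.64 in siCtrl, and rose in 5 of 5 lines (0.54, adjusted p = 0.000141). On group alone neither passed (adjusted p = 0.716 for Lmod1 in siSirt1 and 0.514 for Sirt1 in siLmod1). Myod1, the skeletal muscle determination factor, was at 812 ± 134 CPM in siLmod1, 894 ± 84.9 in siSirt1 and 765 ± 148 in siCtrl (SD, n = 5). Line 4 stood apart in all 3 groups on the first principal component, at 104 to 107 against -50.8 to 3.65 for the other lines. The siSirt1 library of line 7 stood apart on the second, at 97.3, and the siSirt1 library of line 1 lay on the third at 37.0, among the line 3 libraries (35.6 to 48.3) and away from the other line 1 libraries (7.87 and 8.74).

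Muscle builds its thick filaments from a changing set of heavy chains. Embryonic (Myh3) and perinatal (Myh8) chains come first in development and in regenerating muscle, and adult fibres then rely on Myh7 in slow fibres and on Myh2, Myh1 and Myh4 in the fast types IIA, IIX and IIB. Myh6 and Myh7 are the alpha and beta chains of the heart, and Myh7b is an ancient member that hosts a microRNA in an intron. Freshly differentiating myoblasts are known for strong Myh3.

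The 5 developmental and fast genes lie in 1 cluster on mouse chromosome 11 (build mm10), all on the plus strand: Myh3 at chr11:67078300-67102291, Myh2 at chr11:67171027-67197517, Myh1 at chr11:67200052-67224575, Myh4 at chr11:67238029-67260446 and Myh8 at chr11:67277124-67308634. Myh6 (chr14:54941921-54966927) and Myh7 (chr14:54970684-54994626) are neighbours on the minus strand of chromosome 14, and Myh7b is at chr2:155611212-155634307 on the plus strand. Their transcripts are close in sequence, with 89.8% identity between Myh1 and Myh2 and 90.1% between Myh6 and Myh7, against 67.96% to 71.1% between Myh7b and any other member. At 50 bases, 26.7% of the windows of Myh1, 26.9% of Myh2, 21.4% of Myh8, 18.9% of Myh4, 22.2% of Myh7, 22.6% of Myh6, 4.81% of Myh3 and 0% of Myh7b also occurred in another heavy chain transcript. At 150 bases, the read length, these shares were 0.306% to 5.53%, and again 0% for Myh7b. How reads that match more than 1 gene were counted is not given in the sources used here. The low levels of Myh2 and Myh4 beside Myh1, and of Myh6 beside Myh7, are thus uncertain, as are their changes and correlations.

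Embryonic Myh3 was by far the most abundant heavy chain in every library. It was at 5157, 6816, 5284, 1664 and 11093 TPM (the authors' length-scaled level) in siLmod1 lines 1, 2, 3, 4 and 7, at 4345, 6337, 6225, 860.1 and 6139 TPM in siSirt1, and at 5211, 8755, 7057, 1575 and 10800.5 TPM in siCtrl. Line 4 was the lowest in each group, and the 3 groups overlapped. By TPM, Myh3 ranked between 5 and 145 among all genes of a library, the lowest rank being that of siSirt1 line 4.

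Myh1, the fast IIX chain, came next by TPM, and in siLmod1 and siCtrl it varied less between lines than Myh3. Its levels were 278, 393, 437, 481 and 394 TPM in siLmod1 lines 1, 2, 3, 4 and 7, against 360.0, 535, 641, 295 and 194 TPM in siSirt1 and 421, 453, 569, 595 and 566 TPM in siCtrl. The perinatal chain Myh8 was at 156, 359, 278, 36.5 and 220.3 TPM in siLmod1, at 228, 499, 526, 14.5 and 117 TPM in siSirt1, and at 194, 537, 449.8, 39.0 and 369 TPM in siCtrl. Line 4 thus had the lowest Myh8 of every group while holding the highest Myh1 of the siLmod1 and siCtrl groups. The order of these 2 genes depends on the length used: the authors' TPM divides Myh8 by the 11772 bases of all its annotated exons, whereas its longest coding transcript has 6149 bases. Myh8 stood above Myh1 in 0 of 5 siLmod1, 0 of 5 siSirt1 and 1 of 5 siCtrl libraries by TPM, and in 4, 4 and 3 of 5 by the coding transcript's length.

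The other 5 members lay far below. Myh7, the slow chain, was at 8.23, 112, 19.3, 1.40 and 50.6 TPM in siLmod1, at 9.93, 45.3, 16.1, 2.29 and 50.3 TPM in siSirt1, and at 19.3, 186, 28.5, 4.57 and 135 TPM in siCtrl. Its level thus varied far more between lines than between groups, with lines 2 and 7 high and line 4 low in every group. Myh7b was at 20.3, 41.1, 27.8, 16.8 and 31.9 TPM in siLmod1, at 4.82, 17.0, 18.1, 7.59 and 13.01 TPM in siSirt1, and at 13.1, 39.4, 18.4, 7.75 and 23.9 TPM in siCtrl. Myh4, the fastest chain (IIB), was at 9.84, 14.5, 30.8, 3.06 and 5.09 TPM in siLmod1, at 3.09, 6.04, 10.1, 0.62 and 0.67 TPM in siSirt1, and at 6.15, 10.7, 29.3, 3.14 and 5.59 TPM in siCtrl. Line 3 held the most Myh4 in each group. Myh2, the IIA chain, ranged from 1.07 to 6.05 TPM in siLmod1, from 0.93 to 3.67 in siSirt1 and from 1.42 to 5.18 in siCtrl. The cardiac alpha chain Myh6 ranged from 0 to 1.04 TPM in siLmod1, from 0.13 to 0.83 in siSirt1 and from 0.06 to 2.02 in siCtrl, on 4 to 120 counts per library except siLmod1 line 4, which had 0 counts (3 counts there would be 0.104 CPM, for counting error only).

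By mean TPM the order in siLmod1, siSirt1 and siCtrl alike was Myh3, Myh1, Myh8, Myh7, Myh7b, Myh4, Myh2, Myh6. Only the step from Myh3 to Myh1 had ranges that did not overlap in all 3 groups. The step from Myh2 to Myh6 did not overlap in siLmod1 and siSirt1 and overlapped in siCtrl, although Myh2 was higher in 5 of 5 lines. Myh7 stood above Myh7b in 2 of 5 siLmod1, 3 of 5 siSirt1 and 4 of 5 siCtrl lines, so these 2 did not differ beyond the spread between lines.

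**Figure D1:**
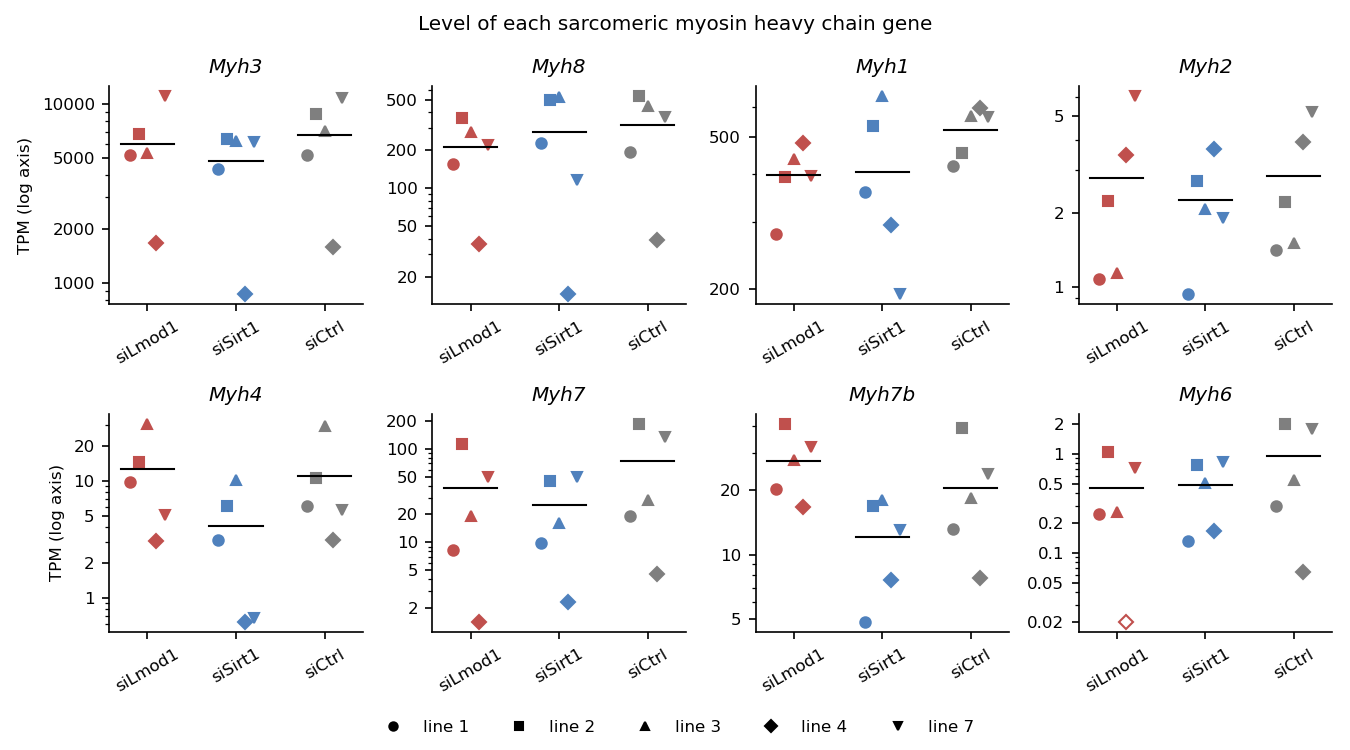
TPM of each of the 8 genes (log axis) in the 5 lines of siLmod1, siSirt1 and siCtrl, with a symbol for each line and a black bar at the arithmetic mean of the group. The open symbol in the Myh6 panel is siLmod1 line 4, which had 0 counts and is drawn at the foot of the axis. Myh3 sits between 860.1 and 11093 TPM and line 4 is lowest for Myh3, Myh8 and Myh7 in every group.

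Myh3 made up most of the summed TPM of the 8 genes: 87.2 ± 7.16% in siLmod1, 84.7 ± 7.84% in siSirt1 and 84.9 ± 8.09% in siCtrl (SD, n = 5). Within a line the Myh3 share was higher in siLmod1 than in siCtrl in 5 of 5 lines, by 0.385 to 4.74 percentage points. Between siSirt1 and siCtrl it was higher in 2 lines and lower in 3 (-2.87 to 3.50 points). Myh1 took 8.47 ± 7.58% in siLmod1, 10.2 ± 8.50% in siSirt1 and 10.03 ± 9.40% in siCtrl, and Myh8 took 3.10 ± 1.44%, 4.28 ± 2.71% and 3.81 ± 1.61% in the same order of groups. The Myh8 share was lower in siLmod1 than in siCtrl in 5 of 5 lines (-1.23 to -0.099 points). These differences are smaller than the spread between lines, and shares were given no test.

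Line 4 had another isoform mix than the other lines under every treatment. Its Myh1 share was 21.8% in siLmod1, 24.9% in siSirt1 and 26.7% in siCtrl, against 2.98% to 8.61% in all other libraries. Myh1 there reached 28.9% of Myh3's TPM in siLmod1, 34.3% in siSirt1 and 37.8% in siCtrl, against 3.16% to 10.3% elsewhere. The summed TPM of the 8 genes in line 4 was 2207 in siLmod1, 1184 in siSirt1 and 2228 in siCtrl, below the other libraries, which held 4952 to 11906.5. Line 4 was lowest for Myh3, Myh8 and Myh7 in every group, but highest for Myh1 in siLmod1 and siCtrl. For the genes that were lower, fewer cells that make them and less transcript per cell cannot be told apart in bulk RNA.

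The minor genes' shares moved with the groups in a few cases. The Myh7 share was lower than in siCtrl in 5 of 5 lines of siLmod1 (0.480 ± 0.559%) and in 5 of 5 lines of siSirt1 (0.398 ± 0.272%), with 0.777 ± 0.711% in siCtrl. The Myh7b share was higher in siLmod1 in 5 of 5 lines, at 0.476 ± 0.187% against 0.278 ± 0.0867% in siCtrl, and averaged 0.282 ± 0.209% in siSirt1. The Myh4 share was lower in siSirt1 in 5 of 5 lines, at 0.0684 ± 0.0457% against 0.152 ± 0.121% in siCtrl, and averaged 0.210 ± 0.175% in siLmod1.

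**Figure D2:**
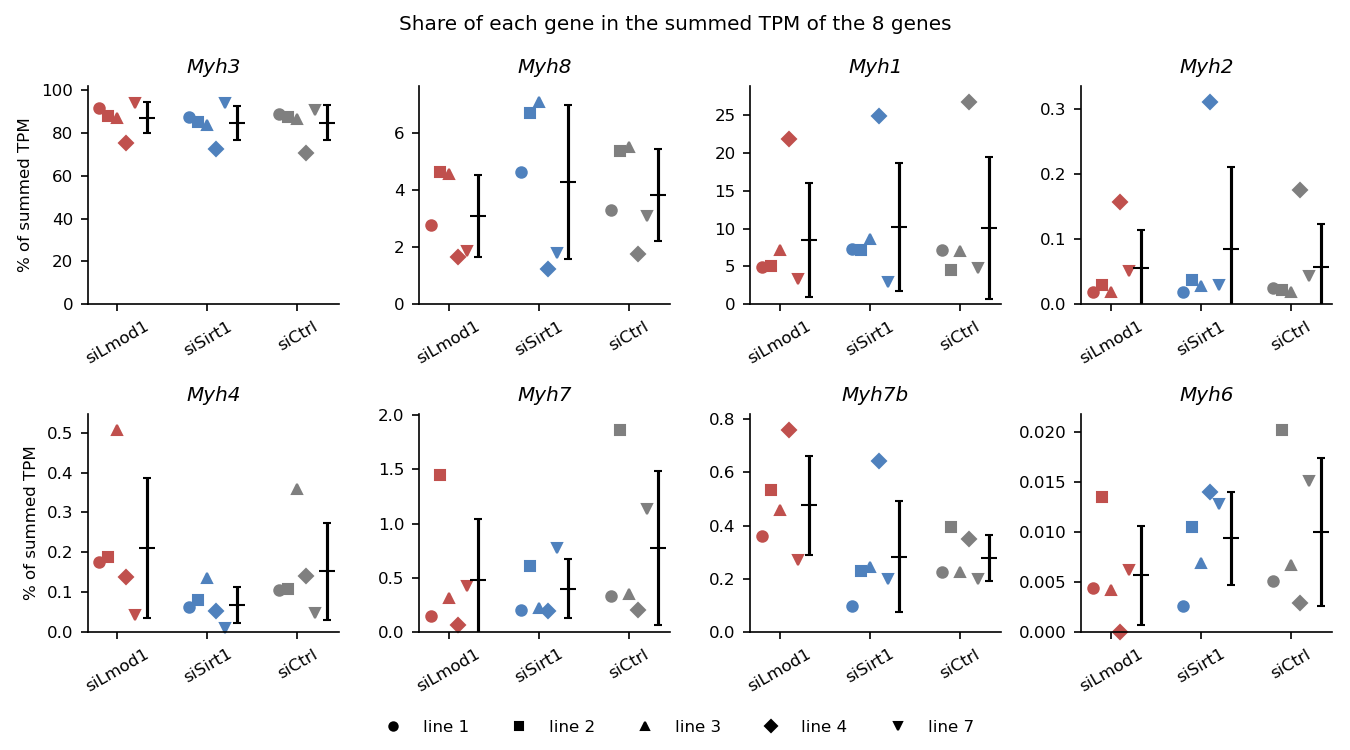
Share of each gene in the summed TPM of the 8 genes (percent, 1 panel per gene with its own scale) for each line of siLmod1, siSirt1 and siCtrl. Black marks are the mean ± SD over 5 libraries, with bars that reach below 0 ended at 0. The diamonds of line 4 lie lowest for Myh3 and highest for Myh1 and Myh2 in all 3 groups.

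What a reduced Lmod1 does to transcripts early in differentiation was read from siLmod1 against siCtrl. With the line as a block, Myh7, Myh8, Myh1 and Myh6 fell and Myh7b rose, while embryonic Myh3 did not pass the test. The slow chain Myh7 fell, with a log2 fold change of -1.11 (SE 0.137, adjusted p = 0.000348). From here on, line by line differences and the counts of lines are in log2 CPM scaled by TMM, edgeR's library scaling. For Myh7 the differences lay between -1.78 and -0.57. Perinatal Myh8 fell by 0.53 on the log2 scale (SE 0.0813, adjusted p = 0.00104) and Myh1 fell by 0.45 (SE 0.0568, adjusted p = 0.000418), each in 5 of 5 lines. Myh6 had a log2 fold change of -1.06 (SE 0.262, adjusted p = 0.0124), on few counts that may include reads of Myh7. Myh7b went the other way, at 0.50 (SE 0.115, adjusted p = 0.00873), higher in 4 of 5 lines and level in line 2 (-0.02). By total count Myh7b of line 2 was slightly higher too, at 85.9 CPM in siLmod1 and 82.7 in siCtrl.

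The remaining 3 members did not pass. Myh3 had a log2 fold change of -0.18 (SE 0.0811, adjusted p = 0.123), with line by line differences of -0.44 and -0.42 in lines 2 and 3 and of -0.03, -0.01 and 0.05 in lines 1, 4 and 7. By total count Myh3 of line 4 was slightly higher, at 3288 CPM in siLmod1 and 3126 in siCtrl. Myh2 was at -0.17 (adjusted p = 0.352) and Myh4 at 0.18 (adjusted p = 0.265). In all, 1 of 8 members was higher and 4 of 8 were lower. Over all 15022 genes tested, the blocked fit called 29.5%, with 12.9% higher and 16.5% lower. The members' median log2 fold change was -0.31 against -0.01 over all genes. The fit on group alone called 0 of 8 members and 0.113% of all genes. In it, 1 of 8 members (Myh1) had an unadjusted p under 0.05, beside 8.99% of all genes, and DESeq2 on group alone called 0 of 8 members and 261 genes.

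Myh7 passed in each of 11 alternatives to the blocked fit. Myh8, Myh1 and Myh7b each passed in 10 of 11 and lost the call when all 15 libraries shared 1 blocked fit (adjusted p = 0.333, 0.293 and 0.146). Myh6 passed in 7 of 11, and failed with all 15 libraries in 1 blocked fit (adjusted p = 0.161), without line 2 (0.0605), without line 7 (0.0673) and without lines 4 and 7 together (0.0517). Without lines 4 and 7, left out after seeing the data, Myh3 passed at -0.30 (adjusted p = 0.0300) and Myh4 at 0.34 (0.0425).

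**Figure D3:**
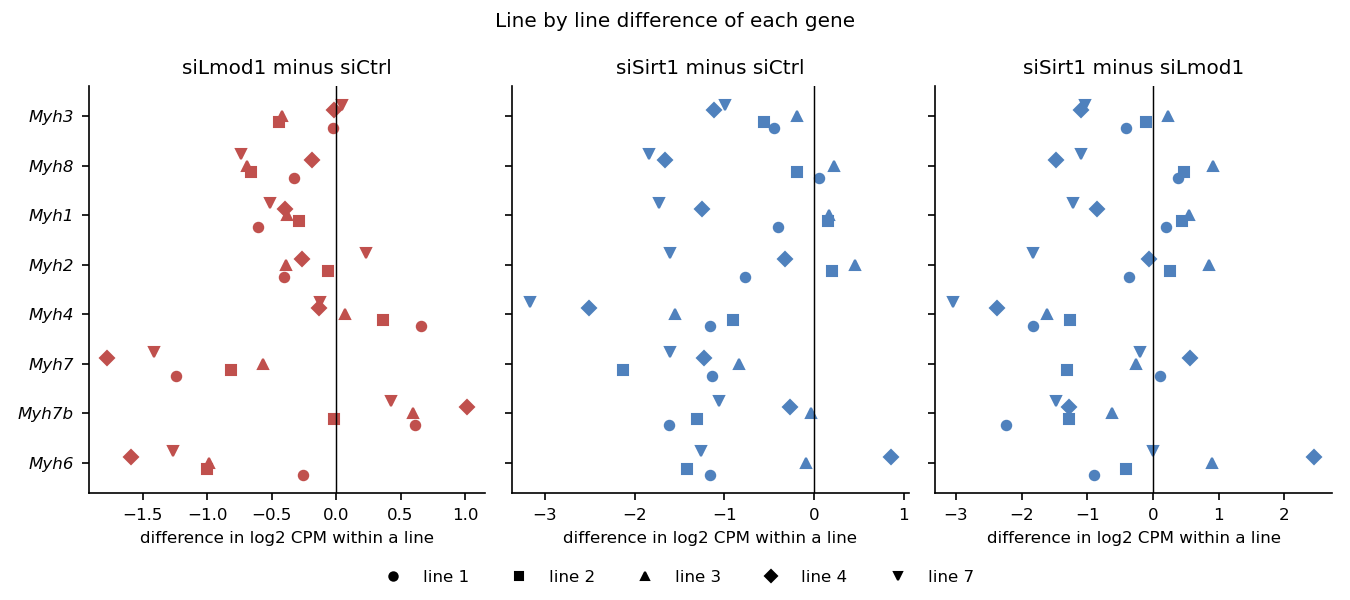
Difference in log2 CPM (scaled by TMM) of each gene within a line, for siLmod1 minus siCtrl, siSirt1 minus siCtrl and siSirt1 minus siLmod1, 1 symbol per line. In siLmod1 minus siCtrl all 5 symbols lie below 0 for Myh8, Myh1, Myh7 and Myh6, and in both siSirt1 panels all 5 lie below 0 for Myh4 and Myh7b.

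The comparison of siSirt1 with siCtrl asked the same of Sirt1. With the line as a block, Myh4 and Myh7, the fastest and the slow adult chain, fell, and no member rose. Myh4 had a log2 fold change of -1.78 (SE 0.325, adjusted p = 0.0203), with line by line differences from -3.16 in line 7 to -0.90 in line 2. In siSirt1 it had only 32 counts in line 4 and 26 in line 7, which may include reads of Myh1. Myh7 had -1.39 (SE 0.177, adjusted p = 0.00730), with differences from -2.13 in line 2 to -0.83 in line 3. Both were lower in 5 of 5 lines. Myh7b (-0.85, SE 0.231, adjusted p = 0.0653) and Myh3 (-0.66, SE 0.164, adjusted p = 0.0518) were also lower in 5 of 5 lines and missed the threshold. For Myh7b line 3 was nearly level (-0.03), and by total count it was at 37.02 CPM in siSirt1 and 36.84 in siCtrl.

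Myh8 and Myh1 split by line. Their fitted log2 fold changes were -0.67 (adjusted p = 0.254) and -0.61 (adjusted p = 0.232). For Myh8 the difference was -1.66 in line 4 and -1.84 in line 7, and between -0.19 and 0.22 in lines 1, 2 and 3. For Myh1 it was -1.25 in line 4 and -1.73 in line 7, and between -0.41 and 0.16 in the others. Without lines 4 and 7, left out after seeing the data, the fitted values were 0.02 for Myh8 (adjusted p = 0.917) and -0.03 for Myh1 (0.902). Myh2 was at -0.40 (adjusted p = 0.452) and Myh6 at -0.78 (adjusted p = 0.254), and Myh6 was higher in line 4 (0.85) and lower in the other 4.

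In all, 0 of 8 members were higher and 2 of 8 lower, beside 2.72% higher and 4.35% lower (7.07% in all) over 14912 genes. All 8 fitted values were negative, as were 49.1% of all genes', and the members' median was -0.73 against 0.01 over all genes. The fit on group alone called 0 of 8 members and 0.127% of all genes (0.0134% higher and 0.114% lower), with 0 members at an unadjusted p under 0.05 beside 9.66% of all genes, and DESeq2 on group alone called 0 of 8 members and 294 genes. Myh7 passed in each of 11 alternatives to the blocked fit. Myh4 passed in 9 of 11, failing without line 3 (-1.88, adjusted p = 0.0583) and without line 4 (-1.60, 0.0508). Without line 1, whose siSirt1 library lay among line 3, Myh4 was at -1.94 (adjusted p = 0.0475) and Myh7 at -1.47 (0.0243). Myh7b passed in 3 of 11, among them DESeq2 with the block (adjusted p = 0.00178) and all 15 libraries (0.0188). Myh3 also passed in 3 of 11, among them all 15 libraries (adjusted p = 0.0259), and its adjusted p reached 0.427 with DESeq2 and the block.

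Set directly against each other, the knockdowns differed in Myh4 and Myh7b, both lower in siSirt1 than in siLmod1 in 5 of 5 lines. With the line as a block, Myh4 had a log2 fold change of -1.97 (SE 0.247, adjusted p = 0.00372) and Myh7b of -1.38 (SE 0.198, adjusted p = 0.00533). The line by line differences ran from -3.04 to -1.27 for Myh4 and from -2.23 to -0.62 for Myh7b. The siSirt1 and siLmod1 ranges still overlapped, since lines differ in level. Both calls held in each of 11 alternatives to the blocked fit. Without line 1 they stood at -2.001 (adjusted p = 0.0180) for Myh4 and -1.17 (0.0129) for Myh7b.

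Myh7, which fell against siCtrl under both knockdowns, did not pass between them (-0.26, SE 0.226, adjusted p = 0.473). It was higher in siSirt1 than in siLmod1 in 2 lines and lower in 3. Myh3 was at -0.49 (adjusted p = 0.165), Myh8 at -0.15 (0.803), Myh1 at -0.17 (0.702), Myh2 at -0.22 (0.714) and Myh6 at 0.24 (0.800). For Myh8 and Myh1, lines 1, 2 and 3 were higher in siSirt1 (0.38, 0.47 and 0.91 for Myh8, and 0.20, 0.44 and 0.54 for Myh1), and lines 4 and 7 were lower (-1.47 and -1.10 for Myh8, and -0.85 and -1.21 for Myh1). Leaving out lines 4 and 7, a choice made after seeing the data, keeps only lines in which both genes were higher. The fitted values were then 0.58 for Myh8 (adjusted p = 0.0224) and 0.39 for Myh1 (0.0393). Since the lines were picked by their direction, no conclusion is drawn from these p-values. Over all alternatives of the blocked fit their adjusted p ran from 0.0224 to 0.898 for Myh8 and from 0.0393 to 0.984 for Myh1.

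The blocked fit called 0 of 8 members higher and 2 of 8 lower, beside 7.43% higher and 8.43% lower (15.9% in all) over 14998 genes. The fit on group alone called 0 of 8 members and 1.53% of all genes (0.68% higher and 0.847% lower), with 1 of 8 members (Myh7b) at an unadjusted p under 0.05 beside 16.5% of all genes. DESeq2 on group alone called 1 of 8 members, Myh7b at a log2 fold change of -1.27, and 922 genes. The 2 comparisons with siCtrl share their control libraries.

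**Figure D4:**
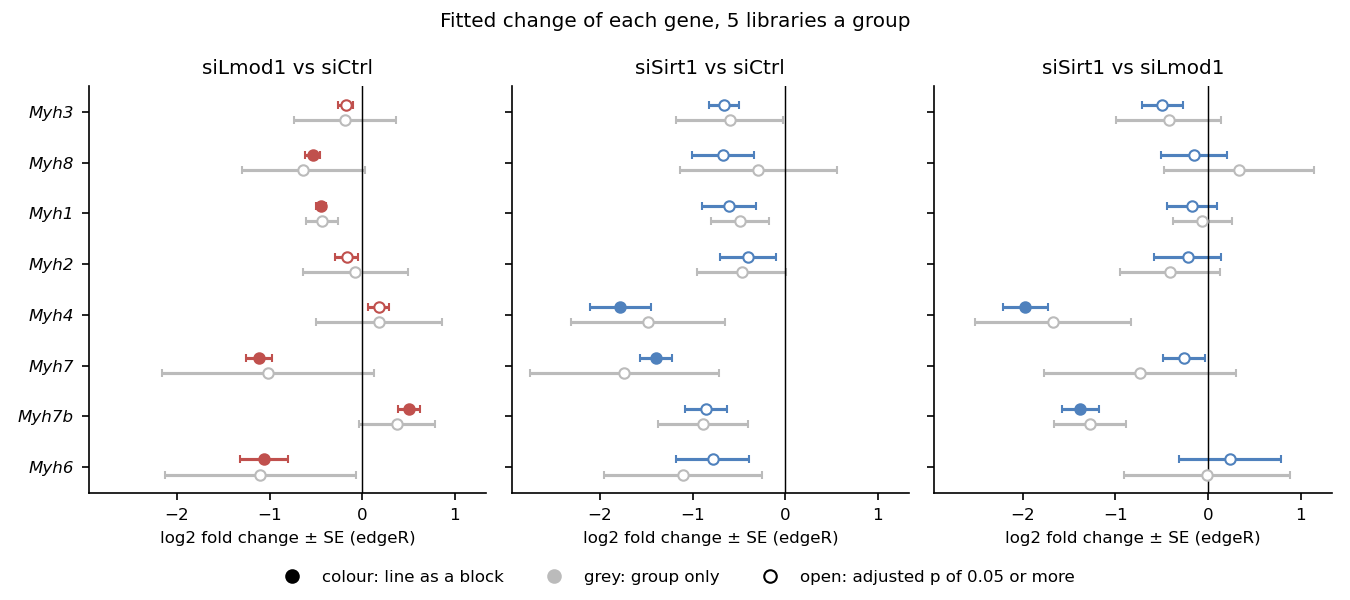
Log2 fold change ± SE of each gene in edgeR, for siLmod1 over siCtrl, siSirt1 over siCtrl and siSirt1 over siLmod1, with the line as a block (colour) and on group alone (grey). Filled symbols passed an adjusted p of 0.05. The values of both fits lie close together for most genes while the SE is smaller with the block, and no grey symbol is filled.

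Promoters are shown for Myh4 and Myh7b, which separated the knockdowns, for Myh7, which fell in both, and for Myh3, the main chain. The sequences are RefSeq's (build GRCm38.p6, whose chromosomes are those of mm10), 250 bases before and 50 after the RefSeq start, written 5′ to 3′ on the gene's own strand. Capitals mark CANNTG, the E-box that Myod1, Myog and related factors bind, the letters TATAAA at any position, and the site of the MEF2 family.
Myh4 (chr11:67237562-67237861, plus strand): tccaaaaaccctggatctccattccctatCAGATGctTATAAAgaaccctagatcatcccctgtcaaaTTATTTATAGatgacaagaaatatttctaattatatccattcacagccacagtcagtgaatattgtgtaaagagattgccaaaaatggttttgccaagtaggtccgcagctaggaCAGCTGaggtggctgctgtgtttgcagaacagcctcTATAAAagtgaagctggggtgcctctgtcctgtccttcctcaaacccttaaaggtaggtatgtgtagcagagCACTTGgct
Myh7b (chr2:155610993-155611292, plus strand): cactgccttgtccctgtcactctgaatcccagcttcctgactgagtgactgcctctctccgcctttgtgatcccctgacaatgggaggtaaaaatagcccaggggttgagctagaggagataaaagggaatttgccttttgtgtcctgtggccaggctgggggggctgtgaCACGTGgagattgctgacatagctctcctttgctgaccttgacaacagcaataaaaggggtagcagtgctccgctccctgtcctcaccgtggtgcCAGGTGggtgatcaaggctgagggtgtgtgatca
Myh7 (chr14:54994577-54994876, minus strand): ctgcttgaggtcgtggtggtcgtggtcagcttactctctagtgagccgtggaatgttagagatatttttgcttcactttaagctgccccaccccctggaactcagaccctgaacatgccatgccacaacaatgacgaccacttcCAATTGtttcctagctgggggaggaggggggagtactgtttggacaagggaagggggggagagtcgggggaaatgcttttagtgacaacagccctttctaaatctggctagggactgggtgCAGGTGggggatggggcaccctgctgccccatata
Myh3 (chr11:67078050-67078349, plus strand): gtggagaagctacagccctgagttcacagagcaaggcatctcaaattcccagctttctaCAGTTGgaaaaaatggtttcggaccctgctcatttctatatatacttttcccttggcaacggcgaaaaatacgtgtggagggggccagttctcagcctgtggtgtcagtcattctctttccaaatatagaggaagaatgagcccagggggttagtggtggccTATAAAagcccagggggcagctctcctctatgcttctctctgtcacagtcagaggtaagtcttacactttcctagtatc

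Motifs were searched on both strands in the 9 RefSeq promoters of the 8 genes, Myh7 having 2 starts whose windows overlap. CANNTG occurred in 7 of 9, against 72.3% of 32851 mouse promoters of the same length, a share too common to set these genes apart. TATAAA occurred in 6 of 9 (13.6% of all promoters), the MEF2 site in 3 of 9 (3.19%), CATTCC, the TEAD site, in 4 of 9 (14.7%), and the CArG box of serum response factor in 1 of 9 (1.63%). The 3 promoters with a MEF2 site were those of Myh1, Myh4 and Myh8, and in each the site overlaps a TATAAA match read on the minus strand. Myh4 held 3 E-boxes and the single CArG box, and Myh7b held 2 E-boxes and no TATAAA. A match describes these letters in this window and nothing about binding.

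Myh6, Myh7 and Myh7b carry microRNAs in introns on their own strand, known together as myomiRs. Their mature sequences (RefSeq) are given with bases 2 to 8, the seed, in capitals.
mmu-miR-208a-3p (Myh6, chr14:54949072-54949093, minus strand): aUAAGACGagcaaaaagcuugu
mmu-miR-208b-3p (Myh7, chr14:54975710-54975731, minus strand): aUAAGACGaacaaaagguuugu
mmu-miR-499-5p (Myh7b, chr2:155622893-155622913, plus strand): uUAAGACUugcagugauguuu
The Myh6 and Myh7 hosts share the seed UAAGACG, and Myh7b's miR-499-5p has UAAGACU. In siLmod1 Myh6 and Myh7 fell and Myh7b rose, with the line as a block. Myh6 held its call in 7 of 11 alternatives, and whether its fall is separate from that of Myh7 was not tested. The microRNAs themselves were not analysed here.

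Strand was not kept by the library kit, so reads of a gene and of its antisense partner cannot be told apart where their exons overlap, and how such reads were counted is not known. Myhas, a noncoding RNA antisense to the fast cluster, shares 515 exon bases, or 8.11%, with Myh1. Its level was 2.80 ± 0.491 CPM in siLmod1, 2.62 ± 0.884 in siSirt1 and 3.57 ± 0.691 in siCtrl (SD, n = 5), against 798 ± 155, 797 ± 356 and 1041 ± 154 CPM of Myh1. It fell with Myh1 in siLmod1 (-0.40, adjusted p = 0.0401 with the block) and followed Myh1 over the 15 libraries (Pearson's r = 0.93, a description over libraries that share lines). Exons of Myh7 overlap antisense RNAs over 13.3% of their bases, and Mhrt, an RNA among them, averaged 0.0648 CPM. Myh2 shares 3.32% with the antisense 9430073C21Rik (3.83 CPM), and Myh7b shares 37 bases, 0.558%, with Trpc4ap (183 CPM).

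Members differed in which genes they followed across the 15 libraries. Among 10307 genes with at least 5 CPM, log2(CPM + 1) of Myh3 was most like that of Pex19, a peroxisome import factor (Pearson's r = 0.971), Cav3, the muscle caveolin (0.969), and Myl4, the embryonic light chain (0.962). Myh8 was most like the small heat shock gene Hspb2 (0.986) and cardiac actin Actc1 (0.985), and Myh7 was most like the thyroglobulin gene Tg (0.952) and the slow troponin Tnnc1 (0.946). For Myh4 the first was Naa25 (0.957), for Myh7b Abraxas2 (0.915) ahead of the leiomodin gene Lmod2 (0.897), for Myh2 Fhl1 (0.885) and for Myh1 the crystallin Cryab (0.868). Among the members, Myh6 and Myh7 had r = 0.94, Myh3 and Myh8 0.90, and Myh3 and Myh7 0.87, while Myh1 and Myh3 had 0.07. All of these are over libraries that share lines, with line 4 apart from the rest.

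All list counts are read against the blocked fits over all genes, which called 12.9% higher and 16.5% lower in siLmod1 against siCtrl, 2.72% and 4.35% in siSirt1 against siCtrl, and 7.43% and 8.43% in siSirt1 against siLmod1. The medians over all genes in these fits were -0.01, 0.01 and 0.01. Counts near those shares are no result about a list, and no list was tested as a set. The lists share genes, so their counts are not separate. For instance, Myog, Actc1 and Mymk are early differentiation genes and skeletal muscle markers, and Eya1 is a fast fibre gene and a regulator.

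Myosin's partners were called about as often as all genes in siLmod1. Of 15 thick filament and myosin folding genes tested, with the line as a block, 2 were higher and 3 lower in siLmod1 against siCtrl, with a median log2 fold change of -0.10 against -0.01 over all genes. Mybph, a myosin binding protein, fell (-0.42, adjusted p = 0.000565), and Trim54, a sarcomere-bound ubiquitin ligase, rose (0.26, 0.0278). In siSirt1 against siCtrl 0 were higher and 2 lower (median -0.36 against 0.01): Mybph (-1.12, adjusted p = 0.0188) and Unc45b, the chaperone that folds muscle myosin (-0.78, 0.0492). Between siSirt1 and siLmod1, the chaperone Hsp90aa1 was lower in siSirt1 (-0.36, adjusted p = 0.0490), the 1 call among 15, below the share over all genes. On group alone none of these lists held a call in any comparison.

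Of 12 fast fibre genes, 4 were higher and 2 lower in siLmod1 (median -0.01): the fast light chain Myl1 (0.71, adjusted p = 0.000248), the cofactor Eya1 (0.64, 0.000248) and Actn3 (0.35, 0.00187) rose, and the calcium store protein Casq1 fell (-0.74, 0.000274). In siSirt1 against siCtrl 1 was higher and 2 lower (median -0.59), with Casq1 at -2.22 (adjusted p = 0.0131), Actn3 at -0.82 (0.0286) and Eya1 at 0.62 (0.0214). Between siSirt1 and siLmod1, 0 were higher and 3 lower: Actn3 (-1.18, adjusted p = 0.0109), Casq1 (-1.48, 0.0196) and Myl1 (-0.97, 0.0278), in the direction of Myh4.

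Of 11 slow fibre genes tested, 1 was higher and 7 lower in siLmod1 (median -0.30 against -0.01 over all genes), in the direction of Myh7. Myoz2, a Z-disc protein (-0.79, adjusted p = 0.000144), the slow troponin C Tnnc1 (-0.34, 0.00124) and the slow tropomyosin Tpm3 (-0.34, 0.00146) fell, and Ppargc1a, the coactivator of oxidative fibres, rose (0.72, 7.04e-05). In siSirt1 against siCtrl 0 were higher and 3 lower of 11 (median -0.69 against 0.01), namely Tnnt1 (-0.83, adjusted p = 0.00845), Tnnc1 (-0.75, 0.0271) and the slow light chain Myl2 (-2.07, 0.0403). Tnnt1 was the 1 call of 10 between siSirt1 and siLmod1 (-0.80, adjusted p = 0.0188).

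Of 23 known regulators of these genes, 2 were higher and 11 lower in siLmod1 (median -0.18). Myogenin, the factor that marks commitment to differentiation, was at 1457 ± 579 CPM in siLmod1, 1807 ± 765 in siSirt1 and 2000.3 ± 767 in siCtrl. Myog fell in siLmod1 (-0.50, adjusted p = 0.000167, 5 of 5 lines) and did not pass in siSirt1 (-0.34, 0.283). Mef2a (-0.44, adjusted p = 0.000454) and Nfix (-0.39, 0.000661), which takes part in the step from embryonic to fetal myosins, also fell in siLmod1. In siSirt1 1 was higher and 1 lower of 23, Eya1 (0.62, adjusted p = 0.0214) and Nfix (-0.48, 0.0497). Between siSirt1 and siLmod1 Nfatc2 (1.29, adjusted p = 0.0261) and Vgll2 (2.40, 0.0450) were higher in siSirt1 and Mef2d was lower (-0.43, 0.0243).

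Of 10 early differentiation genes, 0 were higher and 6 lower in siLmod1 (median -0.21), among them Actc1 (-0.49, adjusted p = 0.000414), the cell cycle inhibitor Cdkn1a (-0.31, 0.00120) and the fusion protein Mymk (-0.36, 0.00122). In siSirt1 against siCtrl 0 were higher and 3 lower (median -0.52): Cdkn1a (-0.76, adjusted p = 0.0138), Mymk (-0.54, 0.0317) and skeletal actin Acta1 (-0.88, 0.0327). Between siSirt1 and siLmod1, desmin (Des, -0.61, adjusted p = 0.0258), Acta1 (-0.69, 0.0272) and Cdkn1a (-0.47, 0.0294) were lower in siSirt1, 3 of 10.

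Markers of other cells and states also moved with the groups. In siLmod1, 4 of 5 proliferation genes fell, with summed levels of 24.98 to 113 CPM in siLmod1, 34.0 to 266 in siSirt1 and 36.5 to 312 in siCtrl. Of 7 tested smooth muscle and pericyte markers 5 fell in siLmod1, with sums of 59.3 to 143 CPM in siLmod1, 103 to 291 in siSirt1 and 83.8 to 275 in siCtrl, and Kcnj8 at or near 0. Of 5 tested fibroblast markers 2 fell in siLmod1 and 1 rose in siSirt1, with sums of 86.7 to 297 CPM in siLmod1, 106 to 795 in siSirt1 and 117 to 503 in siCtrl. Of the 9 cardiac markers, set beside Myh6 and Myh7, 3 were tested in siLmod1 and 1 fell, Gata4 (-1.10, adjusted p = 5.69e-05). The heart's defining Nkx2-5, Tbx5, Hand2 and Myl7 had at most 0.225 CPM in any library, and the sum of the 9 was 3.81 to 16.4 CPM in siLmod1, 8.70 to 36.6 in siSirt1 and 7.82 to 34.9 in siCtrl. Gata4, the most abundant of the list, was at 2.68 to 15.2 CPM in siLmod1, 8.09 to 27.3 in siSirt1 and 6.59 to 34.1 in siCtrl. Tbx20 reached 12.9 CPM in siLmod1, 21.8 in siSirt1 and 20.1 in siCtrl, with medians of 0.534, 0.656 and 1.04, while Nppa, Nppb and Ryr2 stayed at or below 1.89 CPM. Also in siLmod1, 3 of 6 skeletal muscle markers fell (Myog, Actc1 and Mymk, already counted above). There, 2 of 13 mitochondrially encoded genes rose, and of 4 satellite cell markers 1 rose and 1 fell. None of the 2 endothelial, 1 immune and 3 Schwann cell markers tested passed there.

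Between siSirt1 and siLmod1, where Myh4 and Myh7b differed, markers of other cells were called too, with the line as a block. Higher in siSirt1 were Ngfr (2.80, adjusted p = 0.0194), 1 of 3 Schwann cell markers tested, and Notch3 (1.31, 0.00239), 1 of 7 of smooth muscle and pericytes. So were Gata4 (1.15, 0.0117), 1 of 2 cardiac, Col3a1 (1.12, 0.00757), 1 of 5 of fibroblasts, and Pax7 (1.12, 0.00804), 1 of 4 of satellite cells. No other marker of these lists passed, and the other satellite cell markers went both ways (Sdc4 0.37, Myf5 -0.17 and Cd34 -0.19). Tek, 1 of 2 endothelial markers tested, was lower (-0.74, adjusted p = 0.0494), as were 2 of 6 skeletal muscle markers, Des (-0.61, 0.0258) and Chrna1 (-0.52, 0.0283). In siSirt1 against siCtrl, where Myh4 and Myh7 fell, Dcn (1.85, adjusted p = 0.0280), 1 of 5 fibroblast markers, and Sdc4 (0.68, 0.0352), 1 of 4 of satellite cells, were higher. Abcc9 (-1.31, 0.0175), 1 of 7 of smooth muscle and pericytes, and Mymk (-0.54, 0.0317), 1 of 6 of skeletal muscle, were lower. The others of these lists did not pass and went both ways, such as Col1a1 (-0.92) and Pdgfra (0.48), Cd34 (-0.59) and Pax7 (0.34), and Mcam (-0.43) and Notch3 (0.29). No proliferation gene, immune marker or mitochondrially encoded gene passed in either of these comparisons. The part of these markers in the myosin results was not tested.

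Of the other myosin II heavy chains, the nonmuscle chains Myh9 (-0.50, adjusted p = 0.000498) and Myh10 (-0.62, 0.000547) fell in siLmod1 against siCtrl with the block. Myh10 also fell in siSirt1 (-0.45, adjusted p = 0.0375), where Myh9 did not pass (-0.06, 0.762). Smooth muscle Myh11 (0.192 ± 0.0700 TPM in siLmod1, 0.372 ± 0.213 in siSirt1 and 0.221 ± 0.181 in siCtrl) and the extraocular chain Myh13 (1.62 ± 1.07, 1.21 ± 0.237 and 1.34 ± 0.801 TPM) did not pass in any comparison.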

How the data were processed

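Polyadenylated RNA of 15 libraries was sequenced with 150 base reads and an unstranded kit, per the labels. The authors deposited raw counts per Ensembl gene and TPM values. The submitters' processing notes name DESeq2 and mm10, while neither aligner nor counting tool nor gene annotation is named there. Lengths implied by the authors' TPM were taken relative to Myh3. They matched the summed exons of GENCODE M21 for Myh1, Myh2, Myh4, Myh7b and Myh8 and were slightly shorter for Myh7. Myh6 was not checked. Of 49315 IDs, 48970 had a symbol. The authors' normalized counts were not used.

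Counts were tested over the whole table with edgeR 4.0.16 in R 4.3.3 (TMM scaling, filterByExpr, quasi-likelihood F test, Benjamini-Hochberg adjustment over all genes, call at an adjusted p under 0.05), on group alone and with the line as a block. Alternatives were RLE or total count scaling, no filter, DESeq2 1.42.0, all 15 libraries in 1 fit, and libraries or lines left out. The SE given for an edgeR fold change is its absolute log2 value divided by the square root of F. Both edgeR fits were tested on simulated data. CPM divides by the total count, while log2 CPM within lines was scaled by TMM, with a prior count of 2. Shares are of the summed TPM of the 8 genes.

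The series' design text names 5 primary lines. Deviations from group means correlated at 0.278 to 0.889 between libraries of the same number (15 pairs, 15716 genes) and at -0.517 to 0.269 between different numbers, so the number was taken to pair the samples. The labels say nothing more of separate cultures. On group alone, p-values measure the spread between these libraries, and with the block, the spread of the differences within these lines. The floor of 3 counts covers counting error only. Members and gene lists were chosen with earlier results of these data known. Named genes were the 8 members, other myosin II heavy chains, the 5 genes most correlated with each member of at least 1 TPM (mean of 5 CPM or more), and up to 4 genes of smallest p from each list.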

Additional observations from a re-analysis of the deposited data

Results flagged for a closer look

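In 10 of the 48 groups of 5 libraries examined (the TPM and the share of each gene in each group) 1 library lay far from the rest. Chance gives about 1 in 20 of independent groups, but these are not independent, since lines recur in all 3 groups and shares are parts of 1 sum, so the 2 figures are not comparable. Of these, 8 were line 4. Its Myh1 share was 21.8% in siLmod1, 24.9% in siSirt1 and 26.7% in siCtrl, and its Myh2 share was 0.157% in siLmod1, 0.310% in siSirt1 and 0.175% in siCtrl, each far above the other 4 libraries of the group. Its Myh3 share in siCtrl was far below the others at 70.7%, and its Myh7b share in siSirt1 was far above at 0.641%. The same line stood apart on the first principal component.

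The other 2 were a high Myh4 level in siCtrl line 3, at 29.3 TPM, and a high Myh7 share in siLmod1 line 2, at 1.45%. Line 3 also had the highest Myh4 in siLmod1 and siSirt1, and line 2 the highest Myh7 level in siLmod1 and siCtrl.

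The effects of the 2 knockdowns differed, by the direct comparison of siSirt1 with siLmod1 in edgeR with the line as a block, for Myh4 (log2 fold change -1.97, adjusted p = 0.00372, lower in 5 of 5 lines) and Myh7b (-1.38, adjusted p = 0.00533, lower in 5 of 5 lines).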

How the results depend on the processing

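With the line as a block, members called moved to 5 of 8 in siLmod1 against siCtrl, 2 in siSirt1 against siCtrl and 2 in siSirt1 against siLmod1, each being 0 on group alone (DESeq2 on group alone gave 0, 0 and 1). Genes called were 4430, 1054 and 2379 with the block and 17, 19 and 229 without it. DESeq2 without the block gave 261, 294 and 922, all 15 libraries gave 38, 150 and 554, and no filter gave 6, 7 and 90. Total counts gave 7 in siSirt1 against siCtrl, where they moved the median of all genes by 0.11. Leaving out 1 library gave 3 to 10, 3 to 13 and 54 to 247. Leaving out 1 line with the block gave 2833 to 4264, 332 to 580 and 946 to 1771.

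Of the blocked counts of members, all 15 libraries in 1 fit gave 1 in siLmod1 and 4 in siSirt1 against siCtrl (1427 and 2530 genes, with 4210 in siSirt1 against siLmod1). No filter gave 6 members in siSirt1 against siCtrl (1809 genes, and 1940 with DESeq2), 1 line left out gave 1 to 2, and without lines 4 and 7, a choice made after seeing the data like every blocked change of scaling, filter or tool and the coding transcript length, siSirt1 against siLmod1 gave 4. The cause was not tested.

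Of 648 fold changes recomputed, 36 changed sign, none of them in a comparison where the blocked fit called that gene. Without lines 4 and 7 the blocked values changed sign for Myh8 in siSirt1 against siCtrl (0.023). In siSirt1 against siLmod1 they did so for Myh8 (0.58), Myh1 (0.39), Myh2 (0.26) and Myh6 (-0.13). Myh8 and Myh1 then passed with the opposite sign (adjusted p = 0.0224 and 0.0393 in edgeR), but only lines with a rise were left. On group alone in siSirt1 against siLmod1, Myh8 (-0.15) and Myh6 (0.24) changed sign with the block and Myh6 with total counts (0.063). Leaving out 1 library, Myh2 ran from -0.58 to 0.25, Myh3 from -0.55 to 0.063 and Myh4 from -0.41 to 0.87 in siLmod1 against siCtrl, and Myh8 from -0.67 to 0.030 in siSirt1 against siCtrl. In siSirt1 against siLmod1, Myh1 ran from -0.28 to 0.12 (with the block and 1 line left out, -0.36 to 0.085, and 0.012 without line 4), Myh2 from -0.65 to 0.089 (-0.49 to 0.17), Myh6 from -0.33 to 0.58 (-0.087 to 0.51), Myh7 from -1.14 to 0.24 (-0.42 to 0.022) and Myh8 from -0.043 to 0.64 (-0.43 to 0.18, and 0.10 without line 7). Shares stayed within 1 SD in 162 of 168 recomputations. The other 6 were Myh8, whose share was 5.69%, 7.73% and 6.94% in siLmod1, siSirt1 and siCtrl by coding transcript length and 5.79%, 7.86% and 7.06% by CPM.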
